A study of Mus musculus with 16 samples.

Results

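The genes described here are 38 macrophage, phagocyte and complement genes, taken by name from the deposited expression table of mouse quadriceps muscle. All 38 had a row of their own among the 18872 genes with values, and 33 of them averaged 0.5 FPKM or more in the 16 mice and are reported. FPKM counts sequenced fragments relative to transcript length and to library size, so levels can be set side by side between genes. The 5 genes below that level were C3ar1 (0.463 FPKM), Aif1 (0.388), Msr1 (0.367), Trem2 (0.154) and Fcgr1 (0.139), and they entered no test.

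Macrophages live in resting skeletal muscle, mostly in the connective tissue between fibres, where they clear dead cells and debris and take part in repair after injury. They are recognised by the CSF1 receptor, by scavenger and mannose receptors and by the F4/80 antigen, they digest what they engulf with lysosomal enzymes, and they are a main source of C1q, which starts the classical complement pathway. In that pathway C1q binds immune complexes and dying cells, its proteases cut C4 and C2, and the resulting convertase cuts C3, whose fragments mark targets for uptake.

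Whole quadriceps of 16 male C57BL/6J mice aged 13 to 15 weeks was sequenced as polyadenylated RNA, 4 mice in each of 4 groups. MM (WT) mice carry the wild-type γ isoform of CaMKII, a calcium-dependent kinase, and VV mice, their littermates, are homozygous for a knock-in made in embryonic stem cells, CaMK2gVV/CaMK2gVV, in which the oxidizable pair of methionines of this kinase is replaced by valines. Sedentary mice of each genotype were compared with mice that ran 350 m on an inclined treadmill and rested 3 h before the muscle was taken. Mice of all groups had been put on the treadmill on earlier days and then rested for days, food was withdrawn on the day of collection, and runners that stopped early had been left out of the study. The knock-in exchanges amino acids, so the level of its own mRNA does not check the genotype labels.

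The mice are named by the numbers in their titles, and values are given in a fixed order. Among MM mice this is 2032-3, 2074-1, 2127-1 and 2127-3 when sedentary and 2161-4, 2161-9, 2246-4 and 2297-3 when exercised. Among VV mice it is 2074-2, 2074-5, 2126-4 and 2296-5 when sedentary and 2161-5, 2161-7, 2296-2 and 2296-3 when exercised. The sources used here do not say what the first number, before the dash, means. Summed over all genes, FPKM came to 470634 to 513468 per mouse, and 15266 to 15780 genes were above 0. Without read counts, sequencing depth was estimated from ratios of low FPKM values between mice. Relative to the shallowest mouse, this estimate ran from 1 to 1.23. The summed FPKM of 8 skeletal muscle fibre genes was 84840 to 107864 in a mouse, the labelled tissue, and none of the 16 mice had a median rank correlation with the others below 0.975. Among the macrophage genes, sedentary VV mouse 2296-5 had the lowest of the 16 values for 21 of the 33 genes, exercised MM mouse 2297-3 the highest for 16, exercised VV mouse 2161-5 for 7 and exercised MM mouse 2161-9 for 6.

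Across the 33 genes, no difference between groups passed the test, and the differences between single mice of a group were large. After exercise the mean log2(FPKM + 0.1) was higher in MM (WT) muscle for 33 of 33 genes, by a median of 0.73. For VV muscle the median was -0.04, with 12 of 33 above 0. Over all genes tested, 38.9% were above 0 in MM and 27.6% in VV. In exercised mice the level in VV was below that in MM for all 33 genes, with a median log2 difference of -0.59. The comparison of exercised mice shares its MM mice with exercise in MM and its VV mice with exercise in VV. Its values are therefore not independent of theirs. The 33 genes also moved up and down together from mouse to mouse, so their number does not count as replication.

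**Figure D1:**
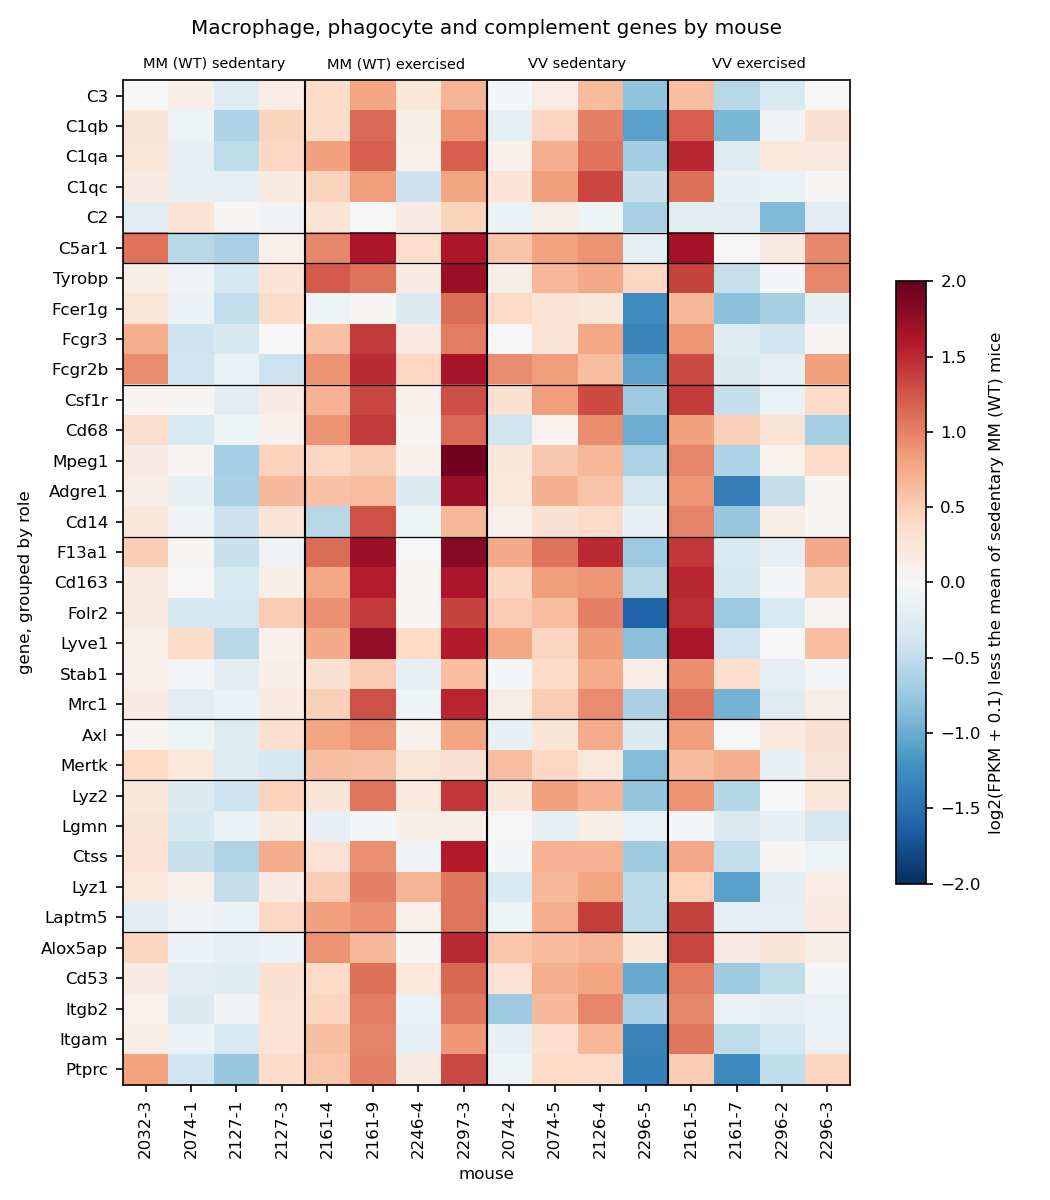
Level of each of the 33 genes (rows, grouped by role and divided by thin lines) in each of the 16 mice (columns, 4 per group). Colour is log2(FPKM + 0.1) less the mean of the 4 sedentary MM (WT) mice for that gene, red above and blue below it. Above that mean for 30 or more genes were exercised MM mice 2297-3 (33), 2161-9 (32) and 2161-4 (30), sedentary VV mice 2074-5 and 2126-4 (32 each), sedentary MM mouse 2032-3 (31) and exercised VV mouse 2161-5 (31), and the fewest were above it in sedentary MM mouse 2127-1 (1) and sedentary VV mouse 2296-5 (3).

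The recognition molecule C1q is a hexamer of trimers built from the products of C1qa, C1qb and C1qc. The genes are neighbours on chromosome 4 in RefSeq's annotation of GRCm38.p6, C1qb at 136880126 to 136886200, C1qc at 136889801 to 136892936 and C1qa at 136895916 to 136898844. C1qa stood at 7.14, 5.43, 4.18 and 8.05 FPKM in MM mice kept sedentary and at 10.6, 13.9, 6.46 and 13.9 in those that ran. For C1qa, VV mice had 6.44, 9.99, 12.9 and 3.69 FPKM when sedentary and 17.3, 4.99, 6.95 and 6.91 after the run. The lowest exercised MM mouse, 2246-4, lay within the range of the sedentary MM mice and the other 3 lay above it, and in the exercised VV group 1 mouse, 2161-5, was far above the rest. Levels of C1qb in MM mice were 9.53, 7.56, 5.18 and 10.9 FPKM when sedentary and 10.3, 17.7, 8.71 and 14.8 when exercised. VV levels of C1qb were 7.04, 10.8, 16.2 and 3.72 FPKM and 18.4, 4.20, 7.59 and 9.88 FPKM, respectively. C1qc stood at 6.44, 5.08, 5.08 and 6.48 FPKM in MM mice kept sedentary and at 7.81, 10.3, 4.22 and 10.0 in those that ran. For C1qc, VV mice had 6.96, 10.3, 14.7 and 4.17 FPKM when sedentary and 12.4, 5.15, 5.21 and 5.80 after the run. All 3 chains had the same ups and downs: with group means removed, C1qa correlated over the 16 mice with C1qb at r = 0.959 and with C1qc at r = 0.963, and C1qb with C1qc at r = 0.897. The exercise difference in MM was 0.83 ± 0.40 (SE) for C1qa, 0.63 ± 0.44 (SE) for C1qb and 0.41 ± 0.36 (SE) for C1qc on the log2 scale, with adjusted p of 0.476, 0.664 and 0.751 (limma). In VV it was 0.11 ± 0.40 (SE), 0.08 ± 0.44 (SE) and -0.29 ± 0.36 (SE), and C1qc gave the second smallest p of the 33 genes for VV against MM in sedentary mice, 0.50 ± 0.36 (SE) with an adjusted p of 0.850.

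C2 encodes the protease that joins the convertase of the classical pathway, and C3 the central component, which liver, fibroblasts and macrophages make. Levels of C3 in MM mice were 23.9, 25.8, 20.1 and 26.4 FPKM when sedentary and 31.0, 41.3, 28.4 and 38.5 when exercised. VV levels of C3 were 23.6, 26.6, 37.3 and 13.7 FPKM and 36.5, 16.2, 19.4 and 23.8 FPKM, respectively. All 4 exercised MM mice were above all 4 sedentary MM mice for C3, whereas the VV groups overlapped. The difference was 0.52 ± 0.27 (SE) in MM (adjusted p 0.504) and -0.06 ± 0.27 (SE) in VV, and VV was below MM among exercised mice by -0.59 ± 0.27 (SE) (unadjusted p 0.0429, adjusted p 0.638). C2 stood at 1.35, 1.96, 1.62 and 1.52 FPKM in MM mice kept sedentary and at 1.96, 1.60, 1.81 and 2.21 in those that ran. For C2, VV mice had 1.45, 1.74, 1.51 and 0.990 FPKM when sedentary and 1.35, 1.37, 0.825 and 1.36 after the run. The exercised VV mice all lay below the exercised MM mice for C2, without overlap, and the difference of -0.61 ± 0.19 (SE) had the smallest unadjusted p of the 33 genes in that comparison, 0.00607, which became 0.638 after adjustment. C2 also led the comparison of genotypes over sedentary and exercised mice, at -0.40 ± 0.14 (SE) (unadjusted p 0.0101, adjusted p 0.396). A limit touches C2: 35.5% of its transcript stretches of 100 bases, the read length, are also found in another annotated gene, Gm20547.

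C5ar1 encodes the receptor for the complement fragment C5a, which attracts phagocytes. Levels of C5ar1 in MM mice were 0.914, 0.227, 0.206 and 0.414 FPKM when sedentary and 0.825, 1.37, 0.510 and 1.37 when exercised. VV levels of C5ar1 were 0.607, 0.738, 0.788 and 0.315 FPKM and 1.42, 0.383, 0.442 and 0.834 FPKM, respectively. Sedentary MM mouse 2032-3 was above 2 of the exercised MM mice, and the groups overlapped in both genotypes. The exercise difference was 1.14 ± 0.43 (SE) in MM (unadjusted p 0.0174, adjusted p 0.312) and 0.66 ± 0.30 (SE) as the mean of both genotypes (adjusted p 0.259).

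Csf1r is the receptor through which CSF1 and IL-34 keep macrophages alive, Adgre1 encodes F4/80, and Cd68 a glycoprotein of late endosomes. Csf1r stood at 2.84, 2.81, 2.35 and 3.13 FPKM in MM mice kept sedentary and at 4.55, 7.16, 2.95 and 6.91 in those that ran. For Csf1r, VV mice had 3.45, 5.03, 6.98 and 1.65 FPKM when sedentary and 7.48, 1.97, 2.53 and 3.63 after the run. Sedentary MM mice were close together for Csf1r and the other groups spread by more than 2-fold. Levels of Adgre1 in MM mice were 0.798, 0.640, 0.421 and 1.19 FPKM when sedentary and 1.13, 1.15, 0.570 and 2.58 when exercised. VV levels of Adgre1 were 0.844, 1.24, 1.11 and 0.539 FPKM and 1.40, 0.216, 0.488 and 0.749 FPKM, respectively. Cd68 stood at 1.86, 1.17, 1.37 and 1.57 FPKM in MM mice kept sedentary and at 2.82, 4.05, 1.51 and 3.34 in those that ran. For Cd68, VV mice had 1.09, 1.55, 2.88 and 0.691 FPKM when sedentary and 2.68, 2.10, 1.78 and 0.883 after the run. For Adgre1 the highest of all mice was exercised MM mouse 2297-3 and the lowest exercised VV mouse 2161-7. For Cd68 the exercised MM mice were the highest group, with 2246-4 inside the sedentary range. In MM the exercise difference was 0.85 ± 0.42 (SE) for Csf1r, 0.66 ± 0.46 (SE) for Adgre1 and 0.86 ± 0.39 (SE) for Cd68, the last with an unadjusted p of 0.0400 and an adjusted p of 0.429. In VV it was -0.14 ± 0.42 (SE), -0.51 ± 0.46 (SE) and 0.32 ± 0.39 (SE). Mpeg1, which encodes the pore-forming perforin-2 of phagocytes, averaged 0.854 ± 0.288 (SD) and 1.65 ± 1.17 FPKM in sedentary and exercised MM mice, and 1.01 ± 0.379 and 1.04 ± 0.505 FPKM in VV mice. Cd14, the co-receptor for bacterial lipopolysaccharide, averaged 0.743 ± 0.180 (SD) and 1.06 ± 0.639 FPKM in sedentary and exercised MM mice, and 0.837 ± 0.150 and 0.875 ± 0.488 FPKM in VV mice.

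The receptors of resident macrophages bind sugars, haemoglobin complexes, hyaluronan, folate and modified proteins. Mrc1 stood at 2.24, 1.68, 1.80 and 2.29 FPKM in MM mice kept sedentary and at 2.80, 4.93, 1.86 and 5.87 in those that ran. For Mrc1, VV mice had 2.21, 2.88, 3.94 and 1.22 FPKM when sedentary and 4.31, 0.989, 1.65 and 2.17 after the run. This is the mannose receptor, and its exercised MM values ran from within the sedentary range to more than 2-fold above it. Levels of Cd163 in MM mice were 3.49, 3.10, 2.49 and 3.36 FPKM when sedentary and 5.36, 9.35, 3.18 and 9.72 when exercised. VV levels of Cd163 were 4.21, 5.57, 5.75 and 2.06 FPKM and 8.92, 2.45, 3.04 and 4.34 FPKM, respectively. Cd163, the receptor for haptoglobin bound to haemoglobin, had a split exercised MM group: 2161-9 and 2297-3 were high, 2161-4 was intermediate and 2246-4 lay among the sedentary mice. Lyve1 stood at 3.10, 3.75, 1.93 and 3.04 FPKM in MM mice kept sedentary and at 4.92, 10.0, 3.82 and 8.88 in those that ran. For Lyve1, VV mice had 4.98, 3.92, 5.29 and 1.58 FPKM when sedentary and 9.11, 2.16, 2.86 and 4.41 after the run. Lyve1 encodes a hyaluronan receptor that lymphatic vessels share with resident macrophages, and its 4 exercised MM mice lay above all 4 sedentary MM mice. Levels of Folr2 in MM mice were 3.72, 2.58, 2.54 and 4.72 FPKM when sedentary and 6.26, 8.76, 3.37 and 8.53 when exercised. VV levels of Folr2 were 4.68, 5.08, 6.68 and 1.01 FPKM and 9.29, 1.94, 2.64 and 3.39 FPKM, respectively. Stab1 stood at 3.47, 3.20, 2.81 and 3.58 FPKM in MM mice kept sedentary and at 4.03, 4.66, 2.90 and 4.96 in those that ran. For Stab1, VV mice had 3.15, 4.24, 5.48 and 3.61 FPKM when sedentary and 6.25, 4.20, 2.81 and 3.21 after the run. For Folr2, the folate receptor β, the single lowest value came from sedentary VV mouse 2296-5, and for the scavenger receptor Stab1 the groups overlapped in every comparison.

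Exercise differences of these receptors in MM were 1.13 ± 0.44 (SE) for Lyve1 (adjusted p 0.344), 1.00 ± 0.41 (SE) for Cd163 (adjusted p 0.369), 0.92 ± 0.53 (SE) for Folr2 (adjusted p 0.568), 0.79 ± 0.42 (SE) for Mrc1 (adjusted p 0.524) and 0.31 ± 0.22 (SE) for Stab1 (adjusted p 0.673). Among VV mice the same 5 genes had 0.15 ± 0.44 (SE), 0.01 ± 0.41 (SE), -0.01 ± 0.53 (SE), -0.24 ± 0.42 (SE) and -0.04 ± 0.22 (SE). F13a1, the A subunit of the transglutaminase factor XIII, which macrophages store, averaged 3.03 ± 0.845 (SD) and 7.49 ± 3.51 FPKM in sedentary and exercised MM mice, and 5.41 ± 2.83 and 4.52 ± 2.64 FPKM in VV mice. Its exercise difference in MM, 1.16 ± 0.49 (SE), was the highest of the 33 genes, with an adjusted p of 0.390, and in VV it was -0.23 ± 0.49 (SE).

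**Figure D2:**
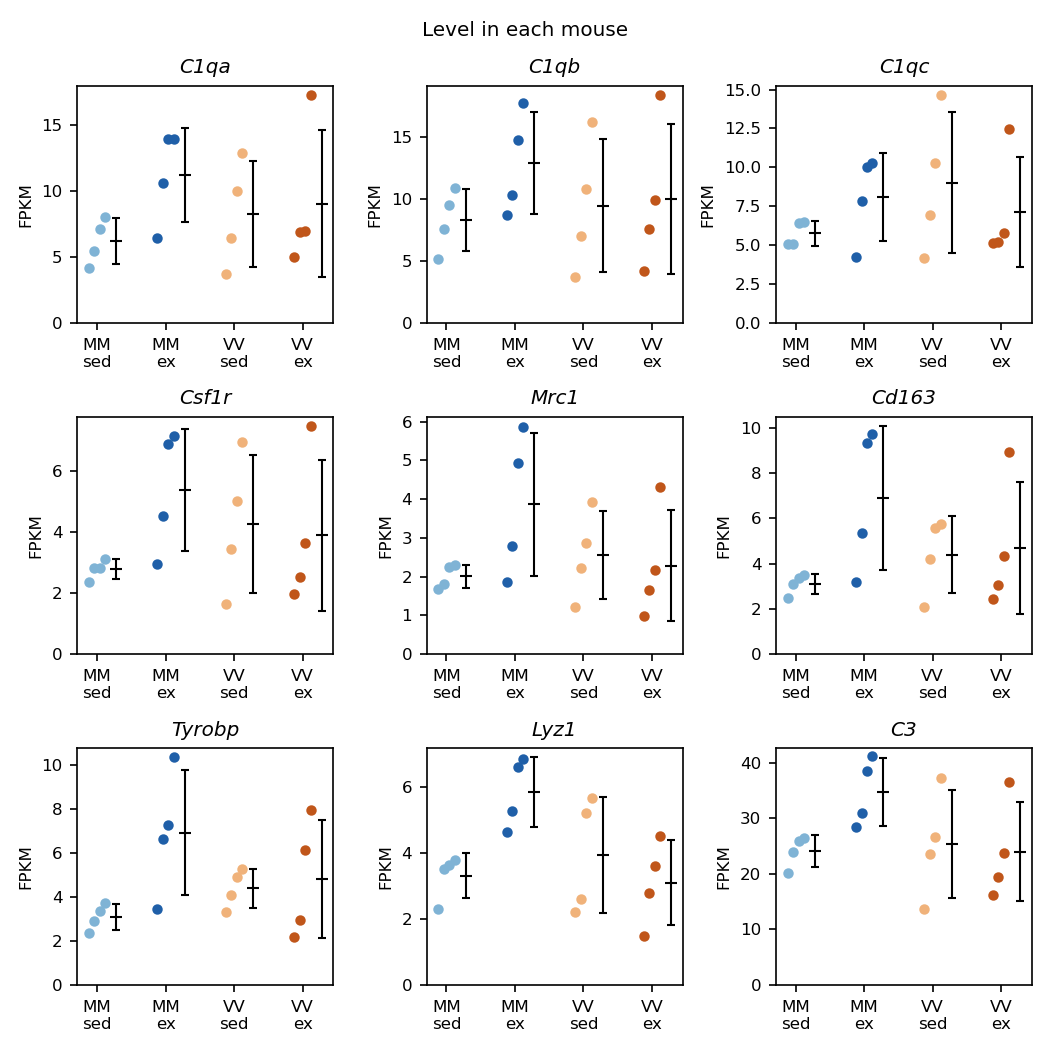
FPKM of 9 genes in each mouse of the 4 groups (sed, sedentary; ex, exercised), with the group mean and SD in black beside the points (n = 4). All axes start at 0. For each of these 9 genes the sedentary MM mice have the smallest SD of the 4 groups in FPKM. Relative to the level this does not hold for every gene. Lyz1, for example, ran from 2.30 to 3.78 FPKM in sedentary and from 4.65 to 6.86 FPKM in exercised MM mice. Only C3 and Lyz1 of these 9 have exercised MM mice that all lie above the sedentary MM mice, as do 3.44% of all genes.

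Tyrobp (DAP12) and Fcer1g are adaptors that pass signals from activating receptors, including Fc receptors for antibody, through ITAM motifs. Tyrobp stood at 3.37, 2.91, 2.38 and 3.73 FPKM in MM mice kept sedentary and at 7.25, 6.61, 3.43 and 10.3 in those that ran. For Tyrobp, VV mice had 3.30, 4.91, 5.26 and 4.09 FPKM when sedentary and 7.93, 2.20, 2.97 and 6.12 after the run. The exercised MM mice were spread 3-fold, and 2246-4 was below the highest sedentary MM mouse. Of the 33 genes, Tyrobp had the smallest p for exercise in MM, 1.05 ± 0.36 (SE) with an unadjusted p of 0.0106 and an adjusted p of 0.249. In VV the difference was -0.03 ± 0.36 (SE), and the difference between the 2 exercise effects was -1.08 ± 0.51 (SE) (unadjusted p 0.0511, adjusted p 1.00). Fcer1g, the other adaptor, averaged 4.44 ± 1.15 (SD) and 5.37 ± 2.79 FPKM in sedentary and exercised MM mice, and 4.44 ± 1.82 and 3.96 ± 2.05 FPKM in VV mice, and its exercise differences were 0.19 ± 0.40 (SE) in MM and -0.15 ± 0.40 (SE) in VV. The inhibitory receptor Fcgr2b averaged 2.02 ± 1.11 (SD) and 4.35 ± 1.63 FPKM in sedentary and exercised MM mice, and 2.68 ± 1.27 and 2.79 ± 1.54 FPKM in VV mice, and the activating receptor Fcgr3 2.67 ± 1.09 (SD) and 4.69 ± 1.70 FPKM in sedentary and exercised MM mice, and 2.74 ± 1.43 and 2.84 ± 1.31 FPKM in VV mice. Fcgr2b had an exercise difference in MM of 1.11 ± 0.47 (SE) (adjusted p 0.394).

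Axl and Mertk are receptor kinases that recognise dying cells through bridging ligands, Gas6 for both and protein S for Mertk. Axl is also made by fibroblasts. Levels of Axl in MM mice were 10.8, 9.84, 8.85 and 13.4 FPKM when sedentary and 18.3, 19.8, 11.3 and 18.4 when exercised. VV levels of Axl were 9.50, 12.7, 17.8 and 8.71 FPKM and 19.0, 10.6, 12.1 and 13.1 FPKM, respectively. Among exercised MM mice 3 were above all sedentary MM mice and 2246-4 was not, and in VV only 2161-5 was above the sedentary range. For exercise as the mean of both genotypes, Axl had the smallest p of the 33 genes, 0.42 ± 0.16 (SE) (unadjusted p 0.0215, adjusted p 0.191), from 0.64 ± 0.23 (SE) in MM and 0.19 ± 0.23 (SE) in VV. Mertk averaged 1.54 ± 0.404 (SD) and 2.09 ± 0.281 FPKM in sedentary and exercised MM mice, and 1.74 ± 0.683 and 2.03 ± 0.544 FPKM in VV mice. Of the ligands, Gas6 stood at a mean of 32.5 FPKM over all mice, with exercise differences of 0.18 in MM and -0.13 in VV, and Pros1, the gene of protein S, at 4.88 FPKM, with 0.04 and 0.06. Csf1, the ligand of Csf1r, stood at 3.55 FPKM with 0.28 and -0.02. None of these passed the test.

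Lysozyme of macrophages is encoded by Lyz2, the most abundant of the 33 transcripts, and its neighbour Lyz1 on chromosome 10 is best known from Paneth cells of the gut. Lyz2 stood at 34.5, 24.5, 22.2 and 40.8 FPKM in MM mice kept sedentary and at 35.5, 61.9, 33.8 and 78.9 in those that ran. For Lyz2, VV mice had 34.5, 52.1, 48.1 and 17.1 FPKM when sedentary and 55.2, 19.9, 29.5 and 35.0 after the run. Levels of Lyz1 in MM mice were 3.78, 3.52, 2.30 and 3.65 FPKM when sedentary and 4.65, 6.63, 5.28 and 6.86 when exercised. VV levels of Lyz1 were 2.62, 5.22, 5.67 and 2.23 FPKM and 4.53, 1.48, 2.79 and 3.62 FPKM, respectively. For Lyz1 the 4 exercised MM mice lay above all 4 sedentary MM mice and also above all 4 exercised VV mice, and for Lyz2 both of these group pairs overlapped. The exercise difference of Lyz1 was 0.81 ± 0.33 (SE) in MM (adjusted p 0.363) and -0.33 ± 0.33 (SE) in VV. The difference between these effects, -1.14 ± 0.46 (SE), had an unadjusted p of 0.0255 and an adjusted p of 1.00, and VV against MM in exercised mice was -0.98 ± 0.33 (SE) (adjusted p 0.638). For Lyz2 the exercise difference was 0.73 ± 0.38 (SE) in MM and -0.09 ± 0.38 (SE) in VV. Of the 100-base stretches of the Lyz1 transcript 2.06% are shared with Lyz2, so a small part of the reads cannot be assigned to 1 of the pair.

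Legumain, the lysosomal protease encoded by Lgmn, had the smallest exercise difference of the 33 genes in MM. Lgmn stood at 18.2, 12.2, 13.8 and 17.2 FPKM in MM mice kept sedentary and at 13.5, 15.0, 16.4 and 16.5 in those that ran. For Lgmn, VV mice had 15.2, 13.6, 16.5 and 13.8 FPKM when sedentary and 14.8, 12.3, 13.6 and 12.0 after the run. The range over all mice was narrow, with 12.0 FPKM in mouse 2296-3 and 18.2 FPKM in mouse 2032-3, and the exercise difference was 0.01 ± 0.12 (SE) in MM and -0.17 ± 0.12 (SE) in VV. Cathepsin S (Ctss), which trims the invariant chain of MHC class II, averaged 3.97 ± 1.78 (SD) and 6.57 ± 3.44 FPKM in sedentary and exercised MM mice, and 4.47 ± 1.88 and 4.03 ± 1.61 FPKM in VV mice. Laptm5, a lysosomal membrane protein of leukocytes, averaged 1.90 ± 0.424 (SD) and 3.25 ± 0.874 FPKM in sedentary and exercised MM mice, and 2.79 ± 1.70 and 2.58 ± 1.57 FPKM in VV mice.

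Alox5ap encodes the protein that hands arachidonic acid to 5-lipoxygenase for leukotriene synthesis. Levels of Alox5ap in MM mice were 3.94, 2.66, 2.55 and 2.63 FPKM when sedentary and 5.48, 4.63, 2.98 and 8.37 when exercised. VV levels of Alox5ap were 4.32, 4.57, 4.69 and 3.42 FPKM and 7.50, 3.25, 3.48 and 3.14 FPKM, respectively. Its exercise difference was 0.77 ± 0.29 (SE) in MM (adjusted p 0.305) and -0.06 ± 0.29 (SE) in VV, and among the 33 genes it had the smallest p for VV against MM in sedentary mice, 0.53 ± 0.29 (SE) with an adjusted p of 0.850. Ptprc encodes CD45, which all leukocytes carry. Ptprc stood at 0.995, 0.375, 0.272 and 0.709 FPKM in MM mice kept sedentary and at 0.819, 1.17, 0.608 and 1.47 in those that ran. For Ptprc, VV mice had 0.491, 0.726, 0.724 and 0.146 FPKM when sedentary and 0.795, 0.160, 0.343 and 0.749 after the run. The lowest values were in mice 2296-5 and 2161-7, and the groups overlapped in every comparison. Ptprc differed by 0.76 ± 0.47 (SE) with exercise in MM and by -0.97 ± 0.47 (SE) between VV and MM in exercised mice (adjusted p 0.638). The integrin chains of complement receptor 3 were low: Itgam averaged 0.683 ± 0.141 (SD) and 1.10 ± 0.379 FPKM in sedentary and exercised MM mice, and 0.699 ± 0.393 and 0.770 ± 0.507 FPKM in VV mice, and Itgb2 0.680 ± 0.130 (SD) and 1.13 ± 0.437 FPKM in sedentary and exercised MM mice, and 0.821 ± 0.525 and 0.796 ± 0.402 FPKM in VV mice. For Itgam, 64.3% of the 100-base stretches of its transcripts also occur in the annotated gene Gm49368, so its level is uncertain. The tetraspanin Cd53 averaged 0.671 ± 0.149 (SD) and 1.20 ± 0.419 FPKM in sedentary and exercised MM mice, and 0.863 ± 0.424 and 0.723 ± 0.501 FPKM in VV mice.

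Promoters of 4 of these genes hold the motif GAGGAAGT, a binding sequence of PU.1, the transcription factor that macrophage development requires. It was searched on both strands from 250 bases before to 50 after each transcription start in the RefSeq promoter table (GRCm38.p6), and the stretches with the match are shown in the direction of the gene, 5′ to 3′, with the motif or its reverse complement ACTTCCTC in capitals.
C1qc, chr4:136893042-136893164, minus strand, first motif base 195 bases before the start: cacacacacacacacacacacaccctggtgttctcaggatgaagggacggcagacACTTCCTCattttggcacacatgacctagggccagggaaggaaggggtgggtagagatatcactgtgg
Ctss, chr3:95526773-95526802, plus strand, first motif base 2 bases before the start: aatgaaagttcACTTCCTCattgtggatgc
Cd53, chr3:106790125-106790154, minus strand, first motif base at base 7: cactcagtctcACTTCCTCactcttctcgc
F13a1, chr13:37049181-37049210, minus strand, first motif base at base 15: cgagtccttttGAGGAAGTacccagaggca
The starts of Ctss and Cd53 are the ends of the annotated genes, and that of C1qc lies 22 bases inside the gene. The table lists 2 starts for F13a1, and the match is at the one that lies 1031 bases inside the gene. Of the 38 genes, 28 had a promoter in the table, and 4 of them (14.3%) held the motif, beside 997 of 27025 genes (3.69%). The exercise differences of these 4 genes in MM were 0.41 ± 0.36 (SE) for C1qc, 0.68 ± 0.40 (SE) for Ctss, 0.72 ± 0.40 (SE) for Cd53 and 1.16 ± 0.49 (SE) for F13a1, and none passed the test. A match is a description of these letters and does not show that the factor binds there.

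Taken over the comparisons, the test across 11693 genes called none of the 33 genes anywhere (adjusted p under 0.05). For exercise in MM (WT), 139 of all genes passed (1.19%) and 0 of the 33, whose smallest adjusted p was 0.249, while 10 of the 33 had an unadjusted p under 0.05, against 10.8% of all genes. Of the 33 differences 33 were above 0, from 0.01 for Lgmn to 1.16 for F13a1, with a median of 0.73; over all genes the median was -0.04 and 38.9% were above 0. The standard errors of the 33 ran from 0.12 for Lgmn to 0.53 for Folr2. Exercised and sedentary MM mice did not overlap, with the exercised higher, for 3 of the 33 (C3, Lyve1 and Lyz1) and for 3.44% of all genes. By role the median was 0.52 for the 5 classical complement genes, counting C3, and the complement receptor gene C5ar1 had 1.14. The median was 0.96 for the 6 resident and scavenger genes, 0.74 for the 5 macrophage identity genes and 0.92 for the 4 Fc receptor and adaptor genes. It was 0.73 for the 5 lysosomal genes, 0.54 for Axl and Mertk, and 0.72 for the 5 leukocyte genes. Without exercised MM mouse 2297-3 the median over the 33 was 0.55 and 31 were above 0.

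For exercise in VV, 29 of all genes passed (0.248%) and 0 of the 33, with a smallest adjusted p of 0.670 (Lgmn) and no unadjusted p under 0.05. The median was -0.04, beside -0.08 over all genes, 27.6% of which were above 0. This sign rests on single mice and on the scaling: the median was -0.31 without mouse 2296-5, -0.28 without 2161-5, 0.15 without 2126-4, 0.15 without 2161-7, 0.06 without 2074-5, 0.05 without 2296-2, and 0.03 with median-ratio or with quantile scaling. The difference of the exercise effects, the test of whether genotype changed the response, passed for 0 of all genes (0%) and 0 of the 33. All 33 differences were below 0, with a median of -0.79 beside -0.04 over all genes, 1 had an unadjusted p under 0.05 (Lyz1) beside 2.06% of all genes, and the smallest adjusted p was 1.00.

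**Figure D3:**
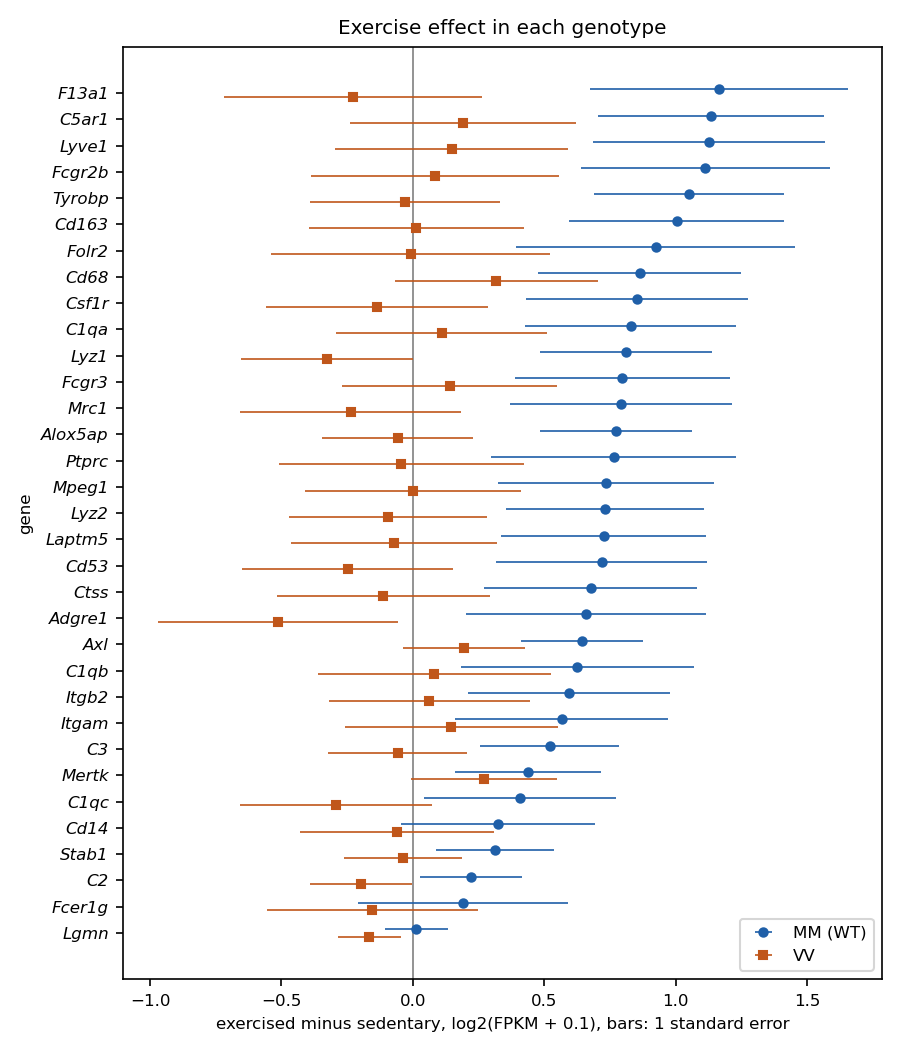
Exercised minus sedentary difference on the log2(FPKM + 0.1) scale for each of the 33 genes (rows, sorted by the MM value), in MM (WT) (blue circles) and VV (orange squares), with bars of 1 standard error from the fit over 16 mice. All MM values are above 0, from 0.01 to 1.16, and the VV values lie between -0.51 and 0.32.

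Between genotypes in sedentary mice, 1 of all genes passed (0.00855%) and 0 of the 33. The median was 0.19 with 25 of 33 above 0, beside -0.03 over all genes with 43.5% above 0, and it was 0.03 without mouse 2126-4, 0.06 without 2127-1, 0.09 without 2074-5, 0.30 without 2127-3 and 0.47 without 2296-5. In exercised mice 0 of all genes passed (0%) and 0 of the 33, 3 of which had an unadjusted p under 0.05 (C2, Lyz1 and C3) beside 6.99% of all genes. The median was -0.59, beside -0.08 over all genes, 31.4% of which were above 0, and it was -0.35 without mouse 2161-7 and -0.39 without 2297-3. The VV mice did not overlap the MM mice, with VV lower, for 2 of the 33 (C2 and Lyz1) and for 2.75% of all genes. Averaged over both genotypes, exercise passed for 347 of all genes (2.97%) and 0 of the 33. The median of the 33 was 0.35 with 32 above 0, beside -0.06 over all genes with 31% above 0. It was 0.17 without mouse 2296-5 and 0.19 without 2161-5. Averaged over sedentary and exercised mice, the genotype difference passed for 1 of all genes (0.00855%) and 0 of the 33. The median of the 33 was -0.18 with 5 above 0, beside -0.06 over all genes with 34.8% above 0. It ran from -0.33 without mouse 2161-5 to -0.04 without 2296-5.

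The 33 genes varied more between mice of a group than most genes did, and they varied together. The SD within groups had a median of 0.63 log2 units for the 33 genes and 0.20 for all genes tested, and 32 of the 33 were above the latter. With group means removed, the 528 pairs of these genes had a median correlation of r = 0.788 over the 16 mice, from -0.260 to 0.980, and 83.3% were above 0.5. Pairs of 1 of these genes with any other gene had a median of 0.134, and 12.1% were above 0.5. These correlations are a description: the points share the muscle sample, its dissection and its library. Csf1r followed the mean of the other genes most closely (r = 0.975), then Cd163 and Cd53 (0.974 each) and C1qa (0.973), and C2 (0.397), Lgmn (0.453), Mertk (0.471) and Cd68 (0.693) followed it least.

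Outside the 33 genes, the 10 genes most like the mean of C1qa, C1qb and C1qc over the 16 mice were Pf4 (r = 0.968), Fn1 (0.964), Emilin2 (0.961), Dpt (0.960), Sirpa (0.958), Timp2 (0.955), Ecm1 (0.951), Nid1 (0.951), Lamb1 (0.949) and Pcsk6 (0.948). Most encode extracellular matrix proteins, such as fibronectin (Fn1), dermatopontin (Dpt), nidogen-1 (Nid1) and a laminin chain (Lamb1), whereas Sirpa is a phagocyte receptor for CD47 and Pf4 a chemokine of platelets and some macrophages. The exercise difference of Fn1 was 0.50 in MM and 0.09 in VV, that of Dpt 0.41 and 0.00346, and that of Pf4 0.60 and -0.48.

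Markers of other cells moved with the macrophage genes in part. The mean log2 level of the 33 genes ran from 1.08 to 1.67 in sedentary and 1.50 to 2.59 in exercised MM mice, and from 0.75 to 2.18 and 1.01 to 2.42 in the same VV groups. Their summed level had medians of 158 and 256 FPKM in sedentary and exercised MM mice and of 193 and 156 FPKM in VV mice. Fibroblast markers (Pdgfra, Dcn, Lum, Col1a1, Dpt, Pi16) summed to 249 to 380.2 FPKM in sedentary and 325 to 519 FPKM in exercised MM mice, and to 223 to 452 and 275 to 454 FPKM in VV mice. Of these markers 6 of 6 were higher in exercised than sedentary MM mice (median 0.41), none past the test. MHC class II and dendritic markers summed to 42.9 to 101 and 72.2 to 155 FPKM in MM mice and to 42.5 to 100.4 and 55.9 to 119.5 FPKM in VV mice, in the same order. Again 6 of 6 tested were above 0 in MM (median 0.78), none past the test, with the dendritic genes Flt3, Xcr1 and Clec9a below 0.5 FPKM. Mast cell markers had 4 of 4 tested above 0 with exercise in MM (median 0.54), erythroid markers 3 of 3 (median 0.58) and lymphatic markers 2 of 2 (median 0.34), none past the test. Adipocyte markers had 3 of 7 above 0 (median -0.23). Between genotypes in exercised mice, VV was lower for 6 of 6 MHC class II and dendritic markers (median -0.55), 5 of 6 fibroblast markers (median -0.42), 7 of 7 adipocyte markers (median -0.50) and 3 of 4 mast cell markers (median -0.30), none past the test. Medians there were -0.13 for lymphatic, -0.04 for erythroid, -0.02 for smooth muscle, 0.01 for endothelial and 0.03 for fibre genes. Sedentary VV mice were also lower for 7 of 7 adipocyte markers (median -0.28). They were higher for 6 of 6 MHC class II and dendritic (0.37), 4 of 4 mast cell (0.25), 3 of 3 erythroid (0.66) and 4 of 6 fibroblast markers (0.13), none past the test. Fibre genes moved by a median of 0.03 and endothelial genes by -0.05 with exercise in MM. As the mean of both genotypes, the endothelial genes Pecam1 (0.22, adjusted p 0.0412) and Cdh5 (-0.24, adjusted p 0.0118) passed in opposite directions. The part of connective tissue content in the macrophage gene levels was not tested, and in whole muscle more macrophages and more RNA per macrophage cannot be told apart.

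**Figure D4:**
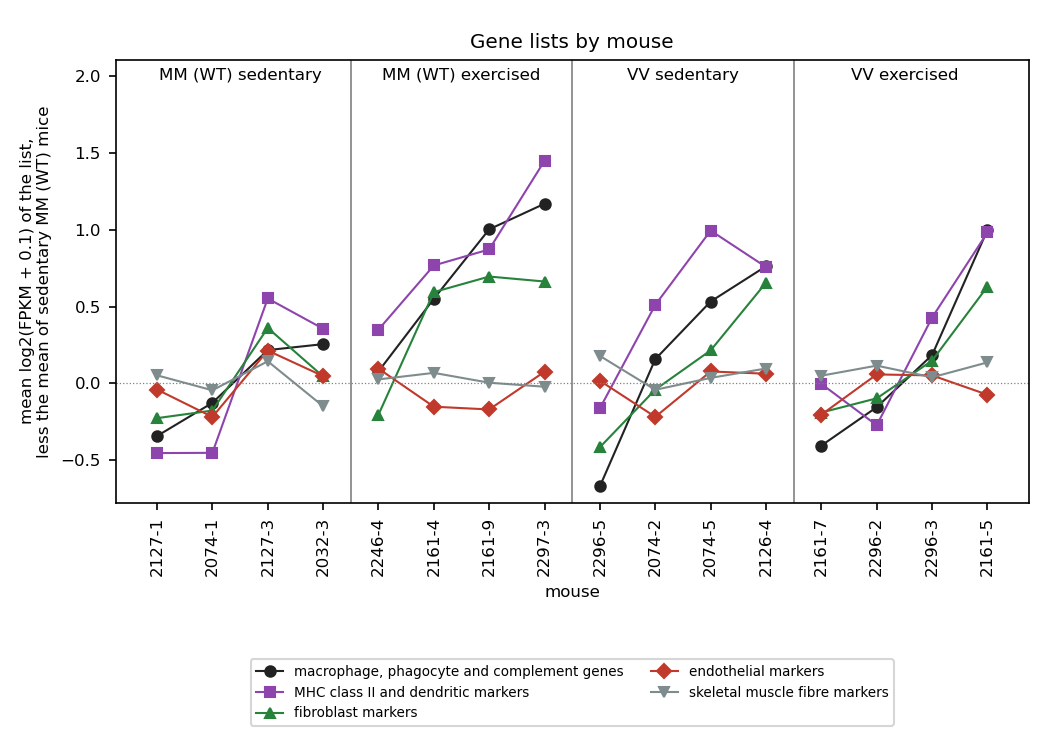
Mean log2(FPKM + 0.1) of 5 gene lists in each mouse, less the mean of the 4 sedentary MM (WT) mice, with mice of a group sorted by the macrophage, phagocyte and complement genes (black circles) and joined by lines for reading only. MHC class II (purple) and fibroblast (green) markers followed the black line in most mice, and endothelial (red) and fibre (grey) markers stayed near 0.

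Markers of lymphocytes, neutrophils and monocytes were mostly too low to be tested. All 9 T and NK cell markers and all 5 B cell markers were below 0.5 FPKM, 2 of 11 neutrophil markers were tested (S100a8, at 0 in 6 mice, and S100a9, at 0 in 1), and 1 of 5 monocyte markers, Ccr2, was, at 0.67 ± 0.25 and 1.37 ± 0.93 FPKM (SD, n = 4) in sedentary and exercised MM mice and 0.90 ± 0.20 and 0.85 ± 0.41 FPKM in VV mice. Of 7 mast cell markers 4 were tested, with means of 3.40 FPKM for the protease gene Mcpt4, 2.18 for Tpsb2, 2.05 for Cma1 and 1.51 for Cpa3, whereas Kit, Fcer1a and Ms4a2 were below 0.5 FPKM. All 7 together summed to 4.70 to 14.0 FPKM in sedentary and 6.26 to 17.9 FPKM in exercised MM mice, and to 2.62 to 13.8 and 5.13 to 15.6 FPKM in VV mice. Red cell transcripts were more abundant, with means of 30.1 FPKM for Hba-a1 and 23.1 FPKM for Hbb-b1, and the 3 erythroid markers summed to 30.2 to 51.7 FPKM in sedentary and 43.2 to 79.5 FPKM in exercised MM mice, and to 26.6 to 111 and 49.8 to 92.4 FPKM in VV mice. The part of blood left in the muscle and of mast cells in the macrophage gene levels was not tested.

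Of 40 other complement genes 34 were in the table and 18 were tested. With exercise in MM 15 of the 18 were above 0 (median 0.17) and in VV 4 of 18 (median -0.05), and none passed the test in any of the 7 comparisons. Serping1, the inhibitor of the C1 proteases, had an exercise difference of 0.54 ± 0.20 (SE) in MM (limma, adjusted p 0.303) and -0.05 in VV. Masp1, a protease of the lectin pathway, was at -0.49 in MM, and Cd59a, which blocks the membrane attack complex, at 0.07. Of the components of the membrane attack complex, C7 had a mean of 13.8 FPKM, C8g of 0.893 FPKM and C6 of 0.0510 FPKM. C5, listed as Hc, had 0.0015 FPKM, and C8a, C8b and C9 had no row.

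Among 40 other phagocyte genes 39 were in the table and 27 tested. In MM 24 of 27 were above 0 with exercise (median 0.41) and in VV 9 of 27 (median -0.09), and 0 of 27 passed in each of the 7 comparisons. The scavenger receptor Stab2, known mainly from sinusoidal endothelium, had similar exercise differences in MM, 0.41 ± 0.16 (SE), and in VV, 0.44 ± 0.16, and as their mean 0.43 ± 0.11 with an adjusted p of 0.0529. Slc11a1, the metal transporter of the phagosome, had 1.02 ± 0.34 in MM (adjusted p 0.217) and 0.20 in VV. Lyn, a Src-family kinase, and Sepp1, the older symbol of selenoprotein P, differed between VV and MM exercised mice by -0.52 ± 0.19 and -0.34 ± 0.13 (adjusted p 0.638 each). Of 6 tested ligands that act on macrophages, the chemokine Ccl8 had 1.22 ± 0.68 in MM and -1.16 ± 0.68 in VV, at 0.45 ± 0.51 and 1.27 ± 1.39 FPKM in sedentary and exercised MM mice and 0.58 ± 0.36 and 0.23 ± 0.22 in VV mice (SD), and none passed the test.

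Mice that share the number before the dash allow 3 comparisons within a number. Under 2161, the mean of the 2 exercised VV mice was below that of the 2 exercised MM mice by a median of -0.50 over the 33 genes, with 31 below 0. The 2 VV mice differed widely: the mean log2 level of the 33 genes was 2.42 in 2161-5 and 1.01 in 2161-7. For the MM mice it was 1.97 in 2161-4 and 2.42 in 2161-9, so only 2161-7 was below both. Under 2074, the 2 sedentary VV mice were above the 1 sedentary MM mouse by 0.46, with 31 above 0. Under 2296, the 2 exercised VV mice were above the 1 sedentary VV mouse, 2296-5, by 0.78, with 30 above 0, whereas the median over all VV mice was -0.04. No number held both sedentary and exercised MM mice, so for that comparison number and exercise cannot be told apart.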

How the data were processed

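Quadriceps RNA of 16 mice was sequenced with a stranded mRNA kit as paired reads of 100 bases. The authors deposited 1 table of FPKM values per gene. Per the submitters' processing notes the build was mm10, and SAMtools, Cuffdiff 2.2.1, StringTie, TopHat and FastQC were used, with no roles stated. Which annotation was used is not stated there. FPKM is a share of each library, so a rise in very abundant genes lowers the others. With no read counts, the spread between mice sets the precision. Of 18873 rows, 1 had no values and 7 had 16 missing values, and 18865 were used.

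Mice were grouped by the genotype and treatment in their labels. The 11693 genes averaging 0.5 FPKM or more were put on the log2(FPKM + 0.1) scale, which understates changes of low genes, and fitted with 4 group means in R 4.3.3 with limma 3.58.1 (eBayes, trend and robust). Tests were two-sided, with the Benjamini-Hochberg adjustment of p values over all genes tested, with a threshold of 0.05, in 7 comparisons. The fit was tested on simulated data in which genes varied independently, whereas the members varied together from mouse to mouse. Figures used Python 3.11.15 and matplotlib 3.10.9.

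The members and gene lists were chosen with earlier results of these data known. Values in every mouse are given for 12 genes chosen by name (C1qa, C1qb, C1qc, C3, Csf1r, Adgre1, Cd68, Mrc1, Cd163, Lyve1, Folr2, Lyz2) and for the 3 members with the smallest p in each comparison. Of other lists, up to 4 genes with the smallest p are named, besides the components of the membrane attack complex, which were chosen after their values were seen. One gene that this rule names is not reported here. Likeness to C1q is the Pearson correlation of log2 values less group means. Coordinates and promoters are RefSeq's for GRCm38.p6, and shared stretches were counted in the GENCODE M21 transcripts. Alternatives were 2 other pseudocounts, other filters, median-ratio and quantile scaling, plain eBayes, sample weights, the groups compared alone, the number before the dash as a block, and each mouse left out.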

Additional observations from a re-analysis of the deposited data

Results flagged for a closer look

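In 12 of 132 sets of 4 mice of a group, 1 mouse lay far from the other 3 by Dixon's criterion. With normally distributed values, chance alone meets this criterion in about 1 in 20 sets. It was applied to FPKM and not to log2 values, so that rate need not hold here. Since these genes moved together within a mouse, the 12 are not independent. Exercised VV mouse 2161-5 was the high value for C1qa (17.3 FPKM), C1qc (12.4), Alox5ap (7.50), Laptm5 (4.90), Itgb2 (1.40) and Itgam (1.52). Exercised MM mouse 2297-3 was the high value for Fcer1g (9.53 FPKM) and Mpeg1 (3.39), and sedentary MM mouse 2032-3 for Alox5ap (3.94) and Fcgr2b (3.66). The low values were Fcer1g in sedentary VV mouse 2296-5 (1.74 FPKM) and C2 in exercised VV mouse 2296-2 (0.825).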

How the results depend on the processing

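No member passed the threshold in any of the 7 comparisons under the 11 other settings or with any 1 of the 16 mice left out. Of the 5914 values of members under these alternatives, 0 passed. The fit of the groups compared alone covered only comparisons between a pair of groups. It was not run for the difference of the exercise effects or for the averaged comparisons. With the filters at means of 1 and 5 FPKM, medians are over the members that remain, which are fewer. The median difference of the members with exercise in MM was 0.57 to 0.84 under the other settings and 0.55 to 0.93 with a mouse left out. For exercise in VV it was -0.19 to 0.03 and -0.31 to 0.15, so its direction depends on these choices. The difference of the exercise effects was -1.09 to -0.56 and -1.08 to -0.58, VV against MM 0.14 to 0.40 and 0.03 to 0.47 in sedentary mice, and -0.68 to -0.42 and -0.84 to -0.35 in exercised mice. With the replicate block, the number before the dash (correlation within a number 0.214), the medians were 0.74, 0.03 and -0.49 for exercise in MM, exercise in VV and VV against MM in exercised mice, and it changed no call of a member. Replicate numbers of mice carry no pairing. Over all genes, exercise in MM called 83 to 239 genes under the other settings (139 as reported), exercise in VV 5 to 45 (29), and exercise as the mean of both genotypes 174 to 557 (347). The values of 7 genes with a mean under 1 FPKM are the least precise, and the spread between 4 mice limits every comparison.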
